A study of Caenorhabditis elegans with 4 samples.

Results

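BLMP-1 peaks near chromosome ends are the called peaks of a ChIP-seq experiment (chromatin immunoprecipitation followed by sequencing) that lie in the outermost 250 kb of chromosomes II, III, IV, V and X of Caenorhabditis elegans. They were chosen by position alone: the midpoint of a peak had to lie in the first 250000 bp of a chromosome, or in the last 250000 bp before the highest peak end of that chromosome over all 3 peak lists. This gave 529 of the 17858 peaks of the list for the whole series, against 15614 peaks in the rest of the same 5 chromosomes. Left ends are counted from position 1, whereas right ends are counted from the last listed peak, which need not be the end of the chromosome.

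All samples were hermaphrodite embryos of strain OP109, grown at 20 °C and treated with 2% formaldehyde. The strain has the genotype unc-119 (ed3) III, rescued by unc-119 (+) on the integrated transgene wgIs109, which expresses BLMP-1 fused to TY1, EGFP and FLAG. Per the labels the transgene was introduced by biolistic transformation and the strain was not outcrossed. Antibodies to GFP were used for 2 ChIP samples, and chromatin that was not precipitated gave 2 input samples. The 3 peak lists are the series list, replicate 1 (11261 peaks) and replicate 2 (3009 peaks). Read depth is unknown and no input list was analysed here, so peaks are called regions and are not shown to be binding sites.

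BLMP-1 is the worm relative of mammalian Blimp-1 (PRDM1), a DNA-binding protein with a PR domain and zinc fingers. In the worm it is known for its roles in the epidermis, in the cuticle and in the timing of gonad migration, and its level is set in part by the F-box protein DRE-1. Worm chromosomes are holocentric, with no single centromere. Their ends carry telomere repeats, and the outer arms of the autosomes are known to be richer in repeats than the centres.

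The first comparison asked whether peaks were more or less frequent at the ends. One end stood far below the rest of its chromosome, the left end of X, in each of the 3 lists. Both ends of V and the right end of X were denser than the rest in the series list. The other 6 ends did not pass the test.

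The left end of X held 6 series peaks, 6 replicate 1 peaks and 1 replicate 2 peak in 250 kb. The rest of X would give 44.4, 28.2 and 8.13 peaks for the same length. Its density was 0.135 of that of the rest in the series list (exact 95% interval 0.0495 to 0.294, adjusted p 5.67e-10) and 0.212 in replicate 1 (0.0779 to 0.463, adjusted p 0.000218), by two-sided exact binomial tests adjusted over all 338 windows of 250 kb on these chromosomes. In replicate 2 the ratio was 0.123 (0.00311 to 0.688), which did not pass the adjustment (exact binomial p 0.0064, adjusted p 0.185). For scale, 2.74% of the 328 interior windows were called sparser than their chromosome in the series list, and 2.44% and 0.61% in the lists of replicates 1 and 2. No interior window was as empty as the left end of X in the series list, where the lowest held 16 peaks, or in replicate 1, where the lowest held 8. In replicate 2, 8 interior windows held 1 peak or none.

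The depleted stretch at X ran past the 250-kb limit and then stopped. After position 223970 the next series peak began at 293240, and the following 250 kb, from 250 to 500 kb, held 45 series peaks, 29 replicate 1 peaks and 8 replicate 2 peaks, close to the numbers that the rest of X would give. Inside the end, the longest stretch without a series peak ran from 54721 to 141534 (86814 bp), and replicate 1 had a gap of 86809 bp at the same place. Replicate 2 had no peak from 13135 to 293242, a gap of 280108 bp. These positions, like all others here, are on WormBase WS220.

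The 6 members at the left end of X were not alike. The outermost, at X 12350 to 13232, was also the strongest, with a width of 883 bp and rank 1347 in the series list, and both replicates had a peak there, 246 bp wide in replicate 1 and 745 bp wide in replicate 2. It was the only replicate 2 peak of this end. The other 5 ranked from 3665 to 13320, and their widths were 25, 144, 406, 41 and 3 bp, from left to right. Of these 5, replicate 1 had a peak at the ones starting at 54696, 141535 and 223968, and no replicate had one at 144785 or 147584. Peak numbers in the files show that 428 numbered peaks of the series list and 148 of replicate 1 were not analysed here, and their positions are unknown. The list of replicate 2 lacked 0 numbers. Whether missing peaks bear on the count of this end was not tested.

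**Figure D1:**
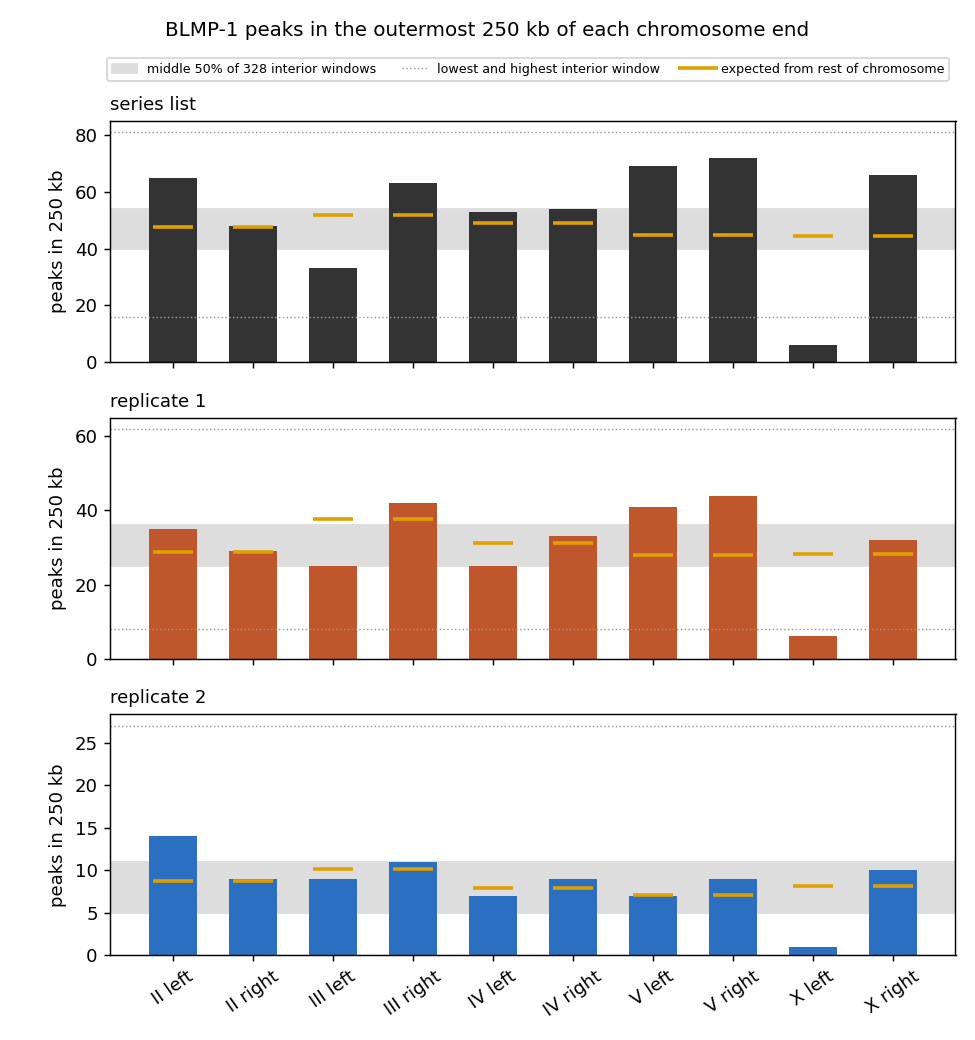
Number of peaks in the outermost 250 kb of each end (bars) in the series list, replicate 1 and replicate 2, with the number expected from the rest of the same chromosome (yellow marks), the middle 50% of the 328 interior windows of 250 kb (grey band) and their lowest and highest values (dotted lines). The left end of X, at 6, 6 and 1 peaks, is below the lowest interior window in the series list and in replicate 1. Both ends of V, at 69 and 72 series peaks, lie above the grey band. So do the left end of II, the right end of III and the right end of X, at 65, 63 and 66.

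Both ends of chromosome V were crowded. The left end held 69 series peaks, 41 replicate 1 peaks and 7 replicate 2 peaks, where 44.7, 28.0 and 7.05 were expected. The right end held 72, 44 and 9 against the same expected numbers. In the series list the ratios were 1.54 (interval 1.20 to 1.96, exact binomial adjusted p 0.0218) on the left and 1.61 (1.26 to 2.03, adjusted p 0.00806) on the right, and none of the 81 interior windows of V held as many peaks as either end. Over all 5 chromosomes, 12 of the 328 interior windows held as many series peaks as the left end, and 7 as many as the right. The ratios in replicate 1 were similar in size, 1.46 and 1.57, but did not pass the adjustment (exact binomial adjusted p 0.214 and 0.101). Replicate 2 gave 0.993 and 1.28, with wide intervals of 0.398 to 2.06 and 0.581 to 2.44. Both also lost the call when peaks with gaps of up to 1000 bp were counted as 1, with ratios of 1.28 and 1.31, and each kept it in 5 of 11 alternatives. The right end was counted from the last listed peak of V, which need not be the end of the chromosome. No alternative moved that point.

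At the right end of X, 66 series peaks, 32 replicate 1 peaks and 10 replicate 2 peaks were counted, where 44.4, 28.2 and 8.13 were expected. The ratio of 1.49 in the series list (interval 1.15 to 1.90, exact binomial adjusted p 0.0425) was only just past the threshold of 0.05. It was 1.13 in replicate 1 and 1.23 in replicate 2, neither of which passed, and 1.04 in the stronger 50% of the series list. The call was also lost without peaks under 50 bp (ratio 1.37, exact binomial adjusted p 0.200) and with all 5 chromosomes as the reference (1.40, adjusted p 0.0767), and it was kept in 2 of 11 alternatives. Of the 68 interior windows of X, 1 held as many series peaks, and of the 328 on all 5 chromosomes, 22 did. Thus 3 of 10 ends were called denser in the series list, where 3.05% of interior windows were. In replicate 1 and in replicate 2 the number called denser was 0 of 10, where 1.83% and 1.52% of interior windows were. At an unadjusted exact binomial p under 0.05, 2 and 0 ends were denser. The share of interior windows past that unadjusted threshold was not counted.

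The remaining ends lay nearer to their chromosomes. The left end of III was the second sparsest, with 33 series peaks, 25 replicate 1 peaks and 9 replicate 2 peaks against 51.9, 37.6 and 10.1 expected. Its ratio was 0.636 (interval 0.437 to 0.896) in the series list, short of the threshold after adjustment (exact binomial p 0.00738, adjusted p 0.0802). The 250 kb next to it were sparser still, with 23 series peaks. With 500 kb counted as the end the ratio was 0.535 (exact binomial adjusted p 7.44e-05), where 4.46% of interior windows were called sparser. In contrast, the left end of II held 65 series peaks, 35 replicate 1 peaks and 14 replicate 2 peaks against 47.7, 28.9 and 8.71 expected, with ratios of 1.36, 1.21 and 1.61 (exact binomial adjusted p 0.121, 0.627 and 0.405). The right end of III gave 63, 42 and 11 peaks and ratios of 1.21, 1.12 and 1.09. On chromosome IV the left end held 53, 25 and 7 peaks and the right end 54, 33 and 9, with series ratios of 1.08 and 1.10. The right end of II lay closest to its chromosome, at 48, 29 and 9 peaks against 47.7, 28.9 and 8.71 expected.

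Over all 10 ends together the series list held 212 peaks per Mb, against 189 per Mb in the rest, a ratio of 1.12 (interval 1.03 to 1.22, two-sided exact binomial p 0.011). The ratio was 1.02 in replicate 1 (0.913 to 1.15, p 0.663) and 1.04 in replicate 2 (0.833 to 1.29, p 0.695). The pooled value hides ends that go opposite ways: without the left end of X it was 1.23 (1.13 to 1.34, exact binomial p 5.7e-06), a comparison chosen after seeing the data. It also rests on few ends, since leaving out any 1 of 5 ends (the left end of II, the right end of III, either end of V or the right end of X) raised the p to between 0.0524 and 0.128. Peaks clump and are not independent, so these p-values cover counting error only and are too small. No test over the 2 ChIP samples was run, since the smallest two-sided p of an exact sign-flip permutation test over them is 0.5.

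Summed over the 5 chromosomes, right ends held more peaks than left ends in each list. The series list had 303 peaks in the 5 right ends and 226 in the 5 left ends, replicate 1 had 180 and 132, and replicate 2 had 48 and 38. Chromosome X alone gave 60 of the 77 series peaks by which the sides differed, and on II it was the left end that held more, 65 against 48. Without X the right and left sums were 237 and 220 in the series list, 148 and 126 in replicate 1, and 38 and 37 in replicate 2. With left ends counted from the first peak of each chromosome in place of position 1, they held 239 series peaks, against the same 303 at the right ends. Both recounts were chosen after seeing the data, and these differences were not tested.

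Within the ends, summed over all 10, series peaks were most frequent in the outermost 100 kb. Single ends differed in this. The left end of V had 40 of its 69 series peaks in its outermost 100 kb, and the left end of IV 13 of its 53. Counted over all 10 ends in steps of 50 kb, the series list held 230, 230, 212, 204 and 182 peaks per Mb from the outside inward, and between 164 and 192 in the 5 steps from 250 to 500 kb. Replicate 1 held 150 per Mb in the outermost step and 122, 118, 114 and 120 in the next 4. Replicate 2, with 12 to 20 peaks in each of its first 5 steps, gave 36, 40, 32, 40 and 24 per Mb. These steps are a description and were not tested.

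**Figure D2:**
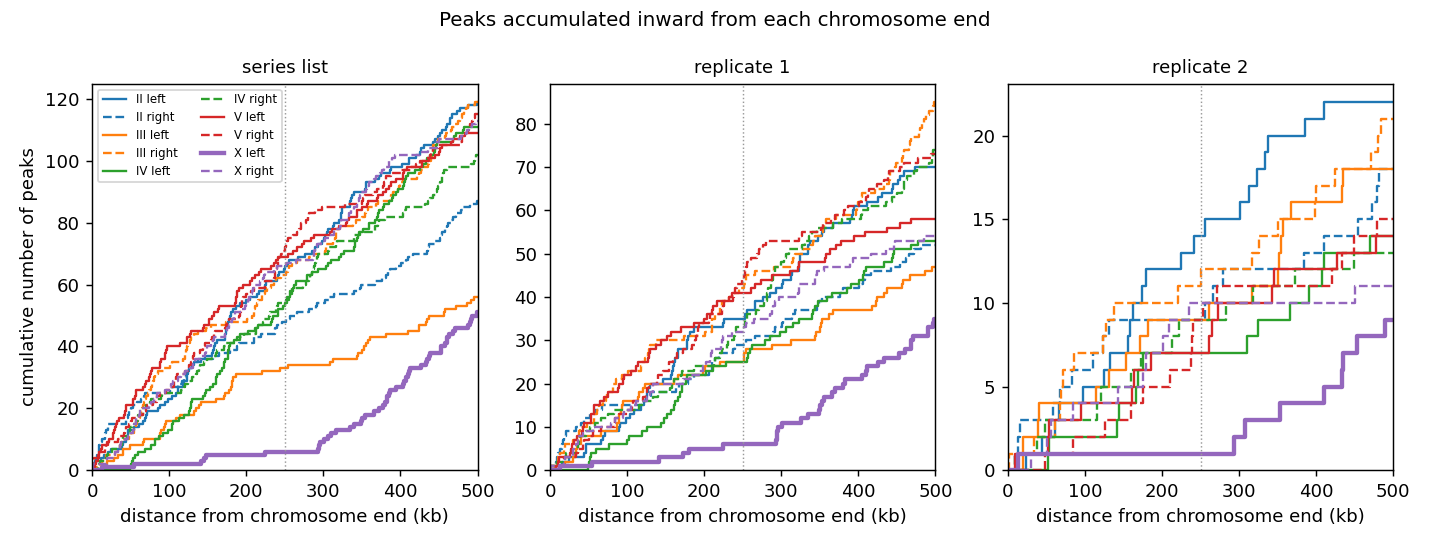
Cumulative number of peaks (vertical axis) against distance from the chromosome end in kb (horizontal axis) for each of the 10 ends, in the series list, replicate 1 and replicate 2, with solid lines for left ends, dashed lines for right ends and a dotted line at 250 kb. The thick line, the left end of X, stays at or below 6 peaks to 250 kb in each list and then rises, and the left end of III, at 33 peaks, is the next lowest at 250 kb in the series list.

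The outermost stretches differed between ends. On IV the first 49275 bp held no series peak, the first 49289 bp no replicate 1 peak and the first 51294 bp no replicate 2 peak, so all 3 lists began at nearly the same place. In the series list the first peak lay 133 bp from the start of II, 2388 bp from that of V, 12349 bp from that of X and 17510 bp from that of III. The first 50 kb of V, by comparison, held 21 series peaks, 11 replicate 1 peaks and 1 replicate 2 peak. Of the 50 steps of 50 kb within the ends, 5 held 1 series peak or none (10%), 4 of them at the left end of X and 1 at that of IV, against 1.03% of 1650 interior steps. At the other extreme, 4 of the 50 held 19 peaks or more, a bound chosen after seeing the counts, against 2.06% of the interior steps.

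A very wide peak closed chromosome III. It spanned III 13778142 to 13781236, 3095 bp, ended 9 bp before the last peak end of that chromosome, and ranked 173 in the series list. It was the widest of the 529 peaks. Replicate 1 had a peak of 3122 bp there, of rank 99, which set the last peak end at 13781245, and replicate 2 had one of 1588 bp, of rank 638. The outermost peaks of the other 9 ends were much narrower, from 35 to 883 bp. At the left end of II the outermost peak spanned 134 to 946 (813 bp) in the series list and 134 to 941 (808 bp) in replicate 1, with none in replicate 2. Of the 10 outermost series peaks, 5 were found in replicate 1 and 2 in replicate 2. Among series peaks in the rest of the chromosomes these shares were 45.7% and 15.5%, so the outermost peaks lay near them.

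The next comparison asked whether peaks at the ends were wider or stronger than elsewhere. They were not detectably so. End peaks were 142 bp wide at the median in the series list, with quartiles of 52 and 219 bp, against 146 bp (64 and 227 bp) in the rest, and 48.4% of them were wider than the median of the rest (exact interval 44.1% to 52.7%), where 49.8% of the rest were (two-sided exact binomial p 0.515). In replicate 1 the medians were 152 and 158 bp, and in replicate 2 they were 263 and 295 bp. Peaks under 50 bp made up 24.0% of end peaks (20.4% to 27.9%) and 20.8% of the rest (exact binomial p 0.0686). Peaks covered 3.90% of the ends and 3.50% of the rest in the series list, 2.47% and 2.31% in replicate 1, and 1.24% and 1.13% in replicate 2.

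Strength was taken from the score that the authors gave each peak, a smaller score meaning a stronger peak. The median end peak stood at 51.8% of the ranking of the series list, where 0% is the strongest, and the median of the rest at 49.9%. Of the end peaks, 47.8% (43.5% to 52.2%) were stronger than the median of the rest (two-sided exact binomial p 0.339). In replicate 1 this share was 52.9% and in replicate 2 46.5%. The strongest 10% of the series list included 53 end peaks, 10.0% of them, against 9.78% of the rest. So these peaks were spread over the whole range of strength.

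Widths and ranks varied between ends. Median width ran from 92.5 bp at the left end of X and 100 bp at that of III to 199 bp at the right end of V, and coverage from 0.601% of the left end of X to 6.98% of the right end of V. The weakest end by median rank was the right end of IV, at 69.1%, followed by the right end of X, at 60.9%, and the strongest was the right end of V, at 40.1%. For width, 0 of 10 ends differed from the rest by the exact binomial test after adjustment over all windows, and 0 at an unadjusted p under 0.05. For strength these numbers were 0 and 1, the 1 being the right end of X, where 33.3% of 66 peaks (22.2% to 46.0%) were stronger than the median of the rest (exact binomial p 0.00921, adjusted p 0.215). Among the interior windows, after adjustment, 0% were called for width, and for strength 0.305% were called stronger and 0% weaker. Their share at an unadjusted p under 0.05 was not counted.

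**Figure D3:**
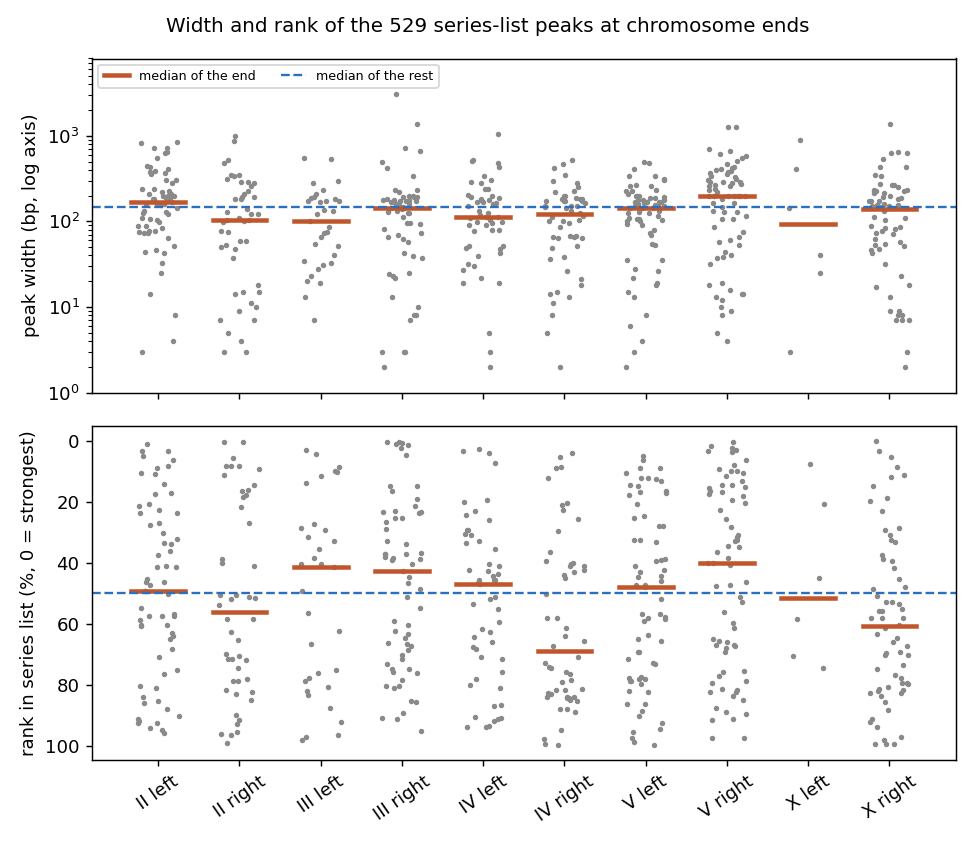
Width in bp on a log axis (top) and rank as a percentage of the series list, 0 being the strongest (bottom), for each of the 529 end peaks (points), with the median of each end (thick bars) and the median of the rest of the 5 chromosomes (dashed lines). Points of every end with more than 6 peaks spread over most of the ranking, and the widest point is the 3095-bp peak at the right end of III.

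Peaks of the strongest 1% of the series list lay at 5 of 10 ends, a count not made for interior windows. They were 9 end peaks, 1.70% of the 529, against 147 peaks or 0.941% of the rest, a difference that was not tested. Of the 9, 4 lay at the right end of III, 2 at that of II and 1 each at the left end of II and the right ends of V and X. The strongest was X 17479231 to 17480618 (1388 bp, rank 13), which ranked 16 in replicate 1 and 15 in replicate 2. Next came II 15217764 to 15218628 (865 bp, rank 28), with ranks of 48 and 16 in the replicates. III 13720021 to 13721377 (1357 bp, rank 31) ranked 32 in replicate 1 and 31 in replicate 2. V 20660177 to 20661434 (1258 bp, rank 43) ranked 39 and 74. Ranks are within each list, and lists differ in length.

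These 4 were also the only end peaks among the 50 strongest of replicate 1, and the first 3 of them the only ones among the 50 strongest of replicate 2. For scale, the ends held 312 of all 11261 replicate 1 peaks and 86 of all 3009 replicate 2 peaks. These counts were not tested. At the right end of III, 4 further peaks ranked among the 10 strongest end peaks. One was the wide outermost peak described above (rank 173), and the others lay at 71.8, 85.4 and 220.3 kb from the end, namely III 13708732 to 13709447 (rank 60), III 13695511 to 13695846 (rank 240) and III 13560576 to 13560994 (rank 109), each with a peak in both replicates. The right end of II held a further peak among these 10, II 15262868 to 15263873 (1006 bp, rank 61). It ranked 62 in replicate 1 and 82 in replicate 2. The strongest peak of the left end of II was II 155995 to 156707 (713 bp, rank 172), which ranked 130 in replicate 1 and 332 in replicate 2.

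Left ends other than that of II had no peak in the strongest 1%. Their strongest peaks were III 40380 to 40913 (rank 522), IV 52874 to 53915 (rank 476), V 53294 to 53635 (rank 856) and the X peak at 12350 (rank 1347). At the right end of IV the strongest, at 17452946 to 17453366, ranked 676. On chromosome V, 4 of 69 peaks at the left end (5.80%) were in the strongest 10% of the series list, against 11 of 72 (15.3%) at its right end, a difference that was not tested. Each of the 10 strongest peaks, 1 for each end, had a peak in both replicates, a count not made for equally strong peaks of the rest. In the list of replicate 2, with 3009 peaks, this peak ranked 2350 at the left end of III, 2675 at the right end of IV, 2941 at the left end of V and 1438 at the left end of X. The same 4 ranked 370, 301, 773 and 2864 among the 11261 peaks of replicate 1.

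The last comparison asked how many end peaks were found again in the single replicates, by an overlap of at least 1 bp. Of the 529, 232 overlapped a replicate 1 peak (43.9%, exact interval 39.6% to 48.2%), against 45.7% of the rest (two-sided exact binomial p 0.407). A replicate 2 peak was overlapped by 77 (14.6%, 11.7% to 17.9%), against 15.5% of the rest (p 0.63). Both replicates had a peak at 46 (8.70%, 6.44% to 11.4%), against 9.16% (p 0.763), and neither at 266 (50.3%, 45.9% to 54.6%), against 48.0% (p 0.296). The sources used here do not say whether the series list was made from the reads of the same 2 libraries, so these shares are not independent evidence for a peak.

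Support went with strength at the ends. The 46 peaks found in both replicates had a median width of 518 bp and a median rank of 722, and the 266 found in neither had a median width of 84 bp and a median rank of 12753. Replicate 1 alone had a peak at 186 members, of median width 162 bp, and replicate 2 alone at 31, of median width 182 bp. In the stronger 50% of the series list 74.7% of end peaks and 75.4% of the rest were found in at least 1 replicate, and in the weaker 50% these shares were 26.8% and 28.6%.

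No single end stood out in replicate support. The share found in replicate 1 ran from 36.4% of 33 peaks at the left end of III to 52.4% of 63 at the right end of III, leaving aside the left end of X, with 4 of 6. For replicate 2 it ran from 8.70% of 69 peaks at the left end of V to 21.5% of 65 at the left end of II. In both measures 0 of 10 ends passed the exact binomial test after adjustment, 0 had an unadjusted p under 0.05, and 0% of interior windows were called after adjustment. Read from the replicates, 44 of the 86 replicate 2 peaks at the ends overlapped a replicate 1 peak (51.2%, 40.1% to 62.1%), against 49.9% of replicate 2 peaks in the rest (exact binomial p 0.83). Conversely, 44 of the 312 replicate 1 peaks at the ends overlapped a replicate 2 peak (14.1%, 10.4% to 18.5%), against 13.5% (p 0.741). A p that misses the threshold does not show that ends and rest are alike, and the intervals give the differences that remain possible.

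**Figure D4:**
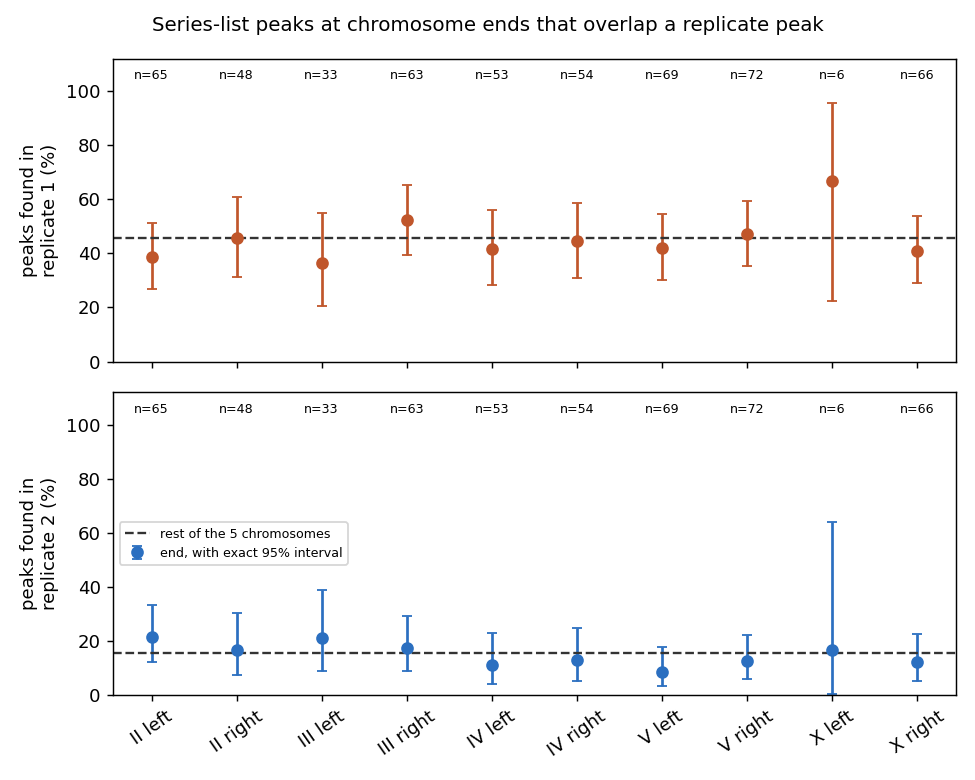
Share of the series-list peaks of each end that overlapped a peak of replicate 1 (top) and of replicate 2 (bottom), in percent, with exact 95% intervals that cover counting error only, the number of peaks in each end, and the share in the rest of the 5 chromosomes (dashed lines, 45.7% and 15.5%). Each interval includes the dashed line.

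At the 250-kb limit itself, the 10 series peaks just inside it, 1 at each end, were 3 to 516 bp wide with ranks from 3473 to 16407, and 4 of them were found in replicate 1 and 0 in replicate 2. The 10 just outside were 8 to 448 bp wide with ranks from 564 to 16693, and 5 were found in replicate 1 and 2 in replicate 2. Of all series peaks in the rest, 45.7% were found in replicate 1 and 15.5% in replicate 2. The difference between inside and outside was not tested.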

How the data were processed

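Peak lists were deposited for the whole series and for ChIP replicates 1 and 2. Per the file headers they were made with PeakSeq on WormBase WS220. Not given in the sources used here are its version, the aligner, the threshold, how inputs were used, and whether the series list came from pooled reads. The deposited score of each peak was read as a q-value, since multiplied by the peak number it never fell along the numbering (0 falling steps in each list). Depth is unknown. Samples were grouped by title, and the labels do not say whether replicates were separate cultures.

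Each of 338 windows of 250 kb (10 ends and 328 interior windows) was compared with the rest of the interior of its chromosome by a two-sided exact binomial test, with Benjamini-Hochberg adjustment and a threshold of 0.05. Shares were tested against the interior of the 5 chromosomes and carry exact (Clopper-Pearson) 95% intervals. Overlaps were checked with bedtools 2.31.1. The density ratios of the window test were checked on simulated peaks placed at random and independently. Since the real peaks clump, that check does not cover the p-values or calls. The tests were computed with scipy 1.17.1 and pandas 2.3.3 under Python 3.11.15, and figures drawn with matplotlib 3.10.9.

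The members and tests were chosen with earlier results of these data known. Named or summarised peaks are, for each end, the strongest, the outermost and those beside the limit, end peaks among the 50 strongest of a replicate, and, chosen after their values were seen, the members at the left end of X and the 10 strongest end peaks. Genes and sequences are not reported, as the only gene table used here follows another assembly.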

Additional observations from a re-analysis of the deposited data

How the results depend on the processing

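Among 164 alternative values, computed for 16 results, 114 stayed on the same side of 1 (or of the rest) and of the threshold or, for counts of ends, within 1.5 times the count reported. The sparse left end of X lay below its chromosome in each of 11 alternatives, with ratios from 0.0841 to 0.575, and was called in 9. The 2 without a call were the replicate 2 list and the strongest 10% of the series list, in which few peaks were counted. The ratio of all ends to the rest lost its call at 1.04 with 500 kb at each end, 1.07 in the stronger 50%, 1.04 with neighbouring peaks counted once, 1.07 without peaks under 50 bp, 1.15 in the strongest 10% and 1.02 to 1.04 in single replicates. The 3 ends called denser became 1 with 100 kb, 0 with 500 kb, 1 in the stronger 50%, 0 with neighbouring peaks counted once, 0 in the strongest 10%, 0 in single replicates, and 2 both without peaks under 50 bp and with all 5 chromosomes as reference, where the right end of X lost its call. Interior windows called denser were 1.19% with 100 kb, 7.01% with 500 kb, 2.13% in the stronger 50% and 0% with neighbouring peaks counted once. They were 0.61% in the strongest 10%, and 1.83% and 1.52% in replicates 1 and 2. Without peaks under 50 bp they were 1.52%, and with all 5 chromosomes as reference 3.66%. The 1 end called sparser became 2 with 500 kb, 0 in the strongest 10% and 0 to 1 in single replicates. Interior windows called sparser were 4.46% with 500 kb, 0% in the strongest 10%, and 2.44% and 0.61% in replicates 1 and 2. The share of end peaks stronger than the median of the rest was 46.5% to 52.9% in single replicates, and in replicate 1 it lay above the rest. Of the 10 ends, 5 changed direction in at least 1 alternative, among them the left end of V and the right end of X, which had been called denser. The right end of II gave 0.911 with 500 kb, 0.740 in the stronger 50%, 0.869 with neighbouring peaks counted once and 0.879 without peaks under 50 bp. The left end of IV gave 0.661 with 100 kb, and 0.799 and 0.889 in replicates 1 and 2. The right end of IV gave 0.838 in the stronger 50%, the left end of V 0.993 in replicate 2 and the right end of X 0.813 in the strongest 10%. The cause was not tested for any of these. The strongest 10%, the list without peaks over 3000 bp, the ratio without the left end of X and that from each chromosome's own rest were chosen after seeing the data. All 5 chromosomes as reference for all ends together is the main setting and was not run again. No paired analysis was possible because input samples have no list among those analysed and each test was made on peaks, not samples. Depth is unknown, so what it limits was not tested.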
